A study of Mus musculus with 6 samples.

Results

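The coding HOX genes of the mouse were taken from the deposited gene table as every Ensembl identifier whose symbol is Hox, a cluster letter from a to d and a number. This gave 39 genes among the 45706 in the table, and the opposite-strand transcripts of the clusters were not members. The libraries came from fibroblasts of wild-type mouse lungs, which had been taken apart with collagenase and trypsin, plated and then purified by a step the labels do not describe. They were either labelled control (3 libraries) or treated for 24 hours with 30 ng/ml of recombinant mouse DKK1 (3 libraries). DKK1 (Dickkopf-1) is a secreted antagonist of Wnt signalling that binds the co-receptors LRP5 and LRP6. The labels give no strain, sex or age, no vehicle for the control and no statement that the replicates came from separate animals, so the p-values measure the spread between these libraries, which may be technical. By its design text the study asked which genes DKK1 regulates in these cells in culture. For the HOX genes the questions were which paralog groups were transcribed in the control cells, and whether their levels differed after DKK1.

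HOX genes encode homeodomain transcription factors that give cells their position along the head-to-tail axis of the embryo. They lie in 4 clusters (Hoxa on chromosome 6, Hoxb on chromosome 11, Hoxc on chromosome 15 and Hoxd on chromosome 2 in mouse), and genes that hold the same place in different clusters form a paralog group, numbered from 1 at the 3′ end to 13 at the 5′ end. In the embryo, genes near the 3′ end are switched on earlier and reach further towards the head than genes near the 5′ end, and cultured fibroblasts keep a HOX pattern that depends on where in the body they were taken. In lung mesenchyme the paralogs of group 5, above all Hoxa5, are needed for normal airway and lung development.

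Library totals ran from 22565917 to 34727102 expected counts, so the floor of 3 counts used here corresponded to 0.0864 to 0.133 CPM (the count scaled to the library total). The defining fibroblast markers were abundant, with the 7 listed genes summing to between 9630 and 11700 CPM over the 6 libraries. Other cell types left smaller amounts of RNA. Epithelial markers summed to between 27.0 and 89.1 CPM in control and between 26.2 and 87.8 CPM in DKK1 libraries. Endothelial markers lay between 19.7 and 52.1 CPM and between 18.1 and 53.2 CPM, leukocyte markers between 43.1 and 78.1 CPM and between 40.9 and 69.8 CPM, and mesothelial markers between 9.73 and 28.1 CPM and between 10.4 and 31.6 CPM. Schwann or neural markers stayed between 6.60 and 9.10 CPM, and the T cell gene Cd3e was at 0 in all libraries. The ranges of these 5 lists overlapped between the groups, and the part of such cells in the HOX levels was not tested. The smooth muscle list did not overlap, at 6680 to 7430 CPM in control and 5610 to 6600 CPM after DKK1. Acta2 made up most of that sum, and Myh11, a smooth muscle myosin, was the 1 of its 6 genes called, falling from 335, 338 and 336 CPM to 273 to 277 CPM (edgeR adjusted p = 0.00387), while 0 were called in the other 6 lists, against 0.895% of all tested genes. Which cells made this RNA was not tested, and neither was their part in the HOX levels. In bulk RNA, fewer cells of a type and less RNA per cell cannot be told apart.

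The control cells transcribed a contiguous stretch of the Hoxa and Hoxb clusters and very little of Hoxc and Hoxd. A gene was counted as expressed at a mean control level of at least 1 CPM, and 15 of the 39 genes reached it, among them Hoxa2 to Hoxa7 and Hoxb2 to Hoxb9. Of the 24 others, 3 had at least 3 counts in every control library and 21 did not. None of the 9 Hoxc and none of the 9 Hoxd genes reached 1 CPM. The expressed count stayed at 15 when any 1 control library was left out and at a threshold of 2 CPM, and was 16 at 0.5 CPM, where Hoxc4 was added.

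**Figure D1:**
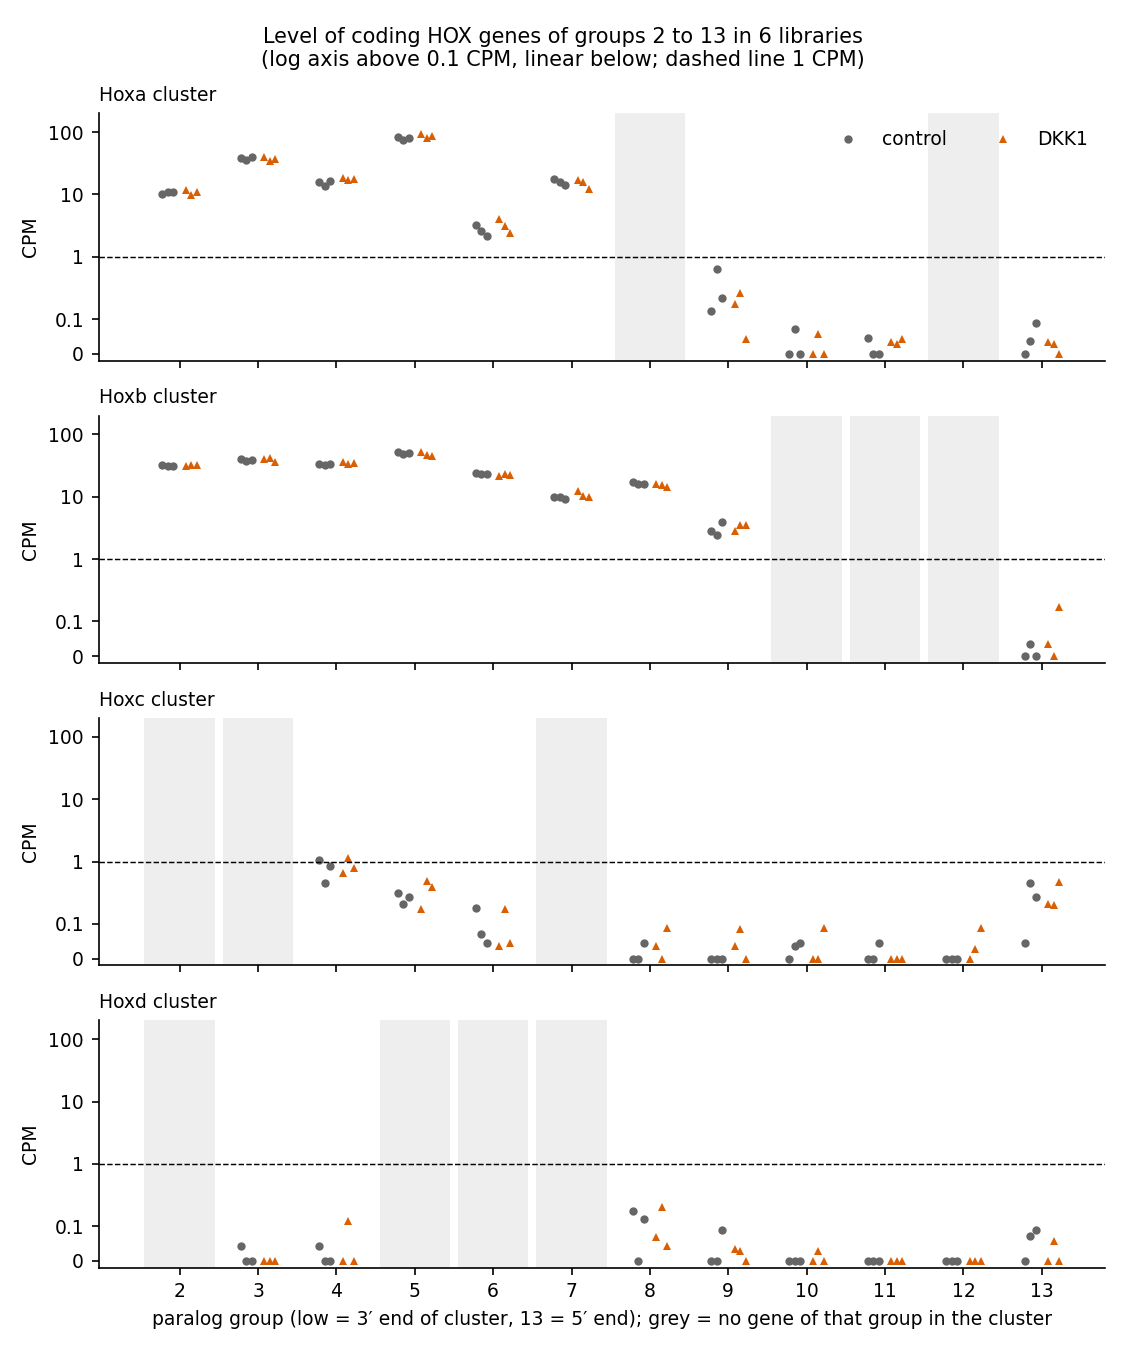
Level of the coding HOX genes of paralog groups 2 to 13 in CPM (vertical axis, logarithmic above 0.1 CPM and linear below) by paralog group, 1 panel per cluster, with the 3 control libraries as grey circles and the 3 DKK1 libraries as orange triangles. Hoxa2 to Hoxa7 and Hoxb2 to Hoxb9 lie above the dashed line at 1 CPM in all 6 libraries, and the other genes lie near or below it.

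The 5′ boundary in the Hoxa cluster was steep. Hoxa7 stood at 15.7 ± 1.64 CPM in control (SD, n = 3), whereas Hoxa9, its 5′ neighbour in the cluster, had 3, 18 and 5 counts in control replicates 1 to 3 and 5, 9 and 1 counts in the DKK1 replicates. Beyond it, Hoxa10, Hoxa11 and Hoxa13 never exceeded 2 counts in any library. Hoxa9 is best known from blood progenitors, Hoxa11 from the forearm and kidney, and Hoxa13 from digits and the urogenital tract. In the Hoxb cluster transcription reached further towards the 5′ end, since Hoxb9 (chr11:96271457-96276595) had 64 to 123 counts per library, and Hoxb13, known from the prostate, at most 4. At the 3′ end, Hoxb1 and Hoxd1 had 0 counts in all 6 libraries. A count of 0 allows up to 3 counts, so a level under 0.0864 CPM in the library with the most reads, or under 0.133 CPM in that with the fewest, was not detectable.

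Among the 24 genes below 1 CPM, the most counts were held by Hoxc4, with 24, 13 and 19 counts in the control libraries and 19, 39 and 18 in the DKK1 libraries. Hoxc5 had 7, 6 and 6 counts in control and 5, 17 and 9 after DKK1. Hoxc13, known from hair and nail, reached 13 counts in control replicate 2 but had 1 in control replicate 1. Hoxc4 was highest in DKK1 replicate 2, the deepest library, and the Hoxc genes other than Hoxc4, Hoxc5 and Hoxc13 had 6 counts or fewer in every library. In the Hoxd cluster the highest value was 7 counts, for Hoxd8 in DKK1 replicate 2. Hoxd1, Hoxd11 and Hoxd12 had 0 counts in every library, as did Hoxb1. Of the 12 genes of groups 10 to 13, which pattern the hind part of the trunk, the limbs and the urogenital tract, each had 4 counts or fewer in every library, apart from Hoxc13.

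Levels can be compared between genes only per length, so each count was divided by the median length of the gene's annotated transcripts and scaled so that all genes of a library add up to the same total as in TPM, a TPM-like value called here the per-length level. On that scale Hoxa5 was the highest HOX gene in control cells, at 52.7 ± 2.71 (SD, n = 3), higher than 74.2% of the 13025 genes with at least 1 CPM. Hoxb3 followed at 38 ± 1.68, then Hoxb5 at 27.0 ± 0.924, Hoxa3 at 26.4 ± 1.54 and Hoxa7 at 24.4 ± 2.59. Hoxa5 and Hoxb3 each lay above the range of the next gene, whereas Hoxb5 and Hoxa3, and Hoxa3 and Hoxa7, overlapped. A middle set ran from Hoxb8 at 18.2 ± 0.792 through Hoxb6, Hoxb2, Hoxb4 and Hoxb7 to Hoxa4 at 11.9 ± 1.25. Below these came Hoxa2 at 7.61 ± 0.315 and Hoxa6 at 3.79 ± 0.846, and Hoxb9 was last at 1.60 ± 0.401, so the expressed genes spanned 32.9-fold. Of the 14 neighbouring pairs in this order, 5 overlapped between their control ranges.

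The order depended in part on the transcript length chosen. With the longest transcript of each gene Hoxa5 kept the first rank, and with the shortest it had rank 3.

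Summed over each paralog group, groups 5 and 3 held the largest parts of the per-length level, in an order that depended on the transcript length. Group 5 (Hoxa5 and Hoxb5, with a trace of Hoxc5) held 28.4% ± 0.355 of the summed HOX level in control (SD, n = 3), although this share was 16.5% with the shortest transcripts and 36.2% with the longest. Group 3 held 22.9% ± 0.664, and with the shortest transcripts 47.1%, ahead of group 5. Group 7 held 13.9% ± 0.941. Groups 4, 2, 6 and 8 followed with 10.2% ± 0.430, 8.67% ± 0.276, 7.78% ± 0.342 and 6.51% ± 0.121, an order that also changed with the transcript length, since group 4 was above group 7 with the longest transcripts (13.7% and 9.23%) and below group 2 with the shortest (5.48% and 6.14%). Group 9 held 0.750% ± 0.160. By cluster, Hoxb held 53.6% ± 0.434 and Hoxa 46.0% ± 0.355, leaving 0.343% ± 0.0510 for Hoxc and 0.0484% ± 0.0307 for Hoxd. With the longest transcripts the order of the leading pair turned, to 51.1% for Hoxa and 48.5% for Hoxb.

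**Figure D2:**
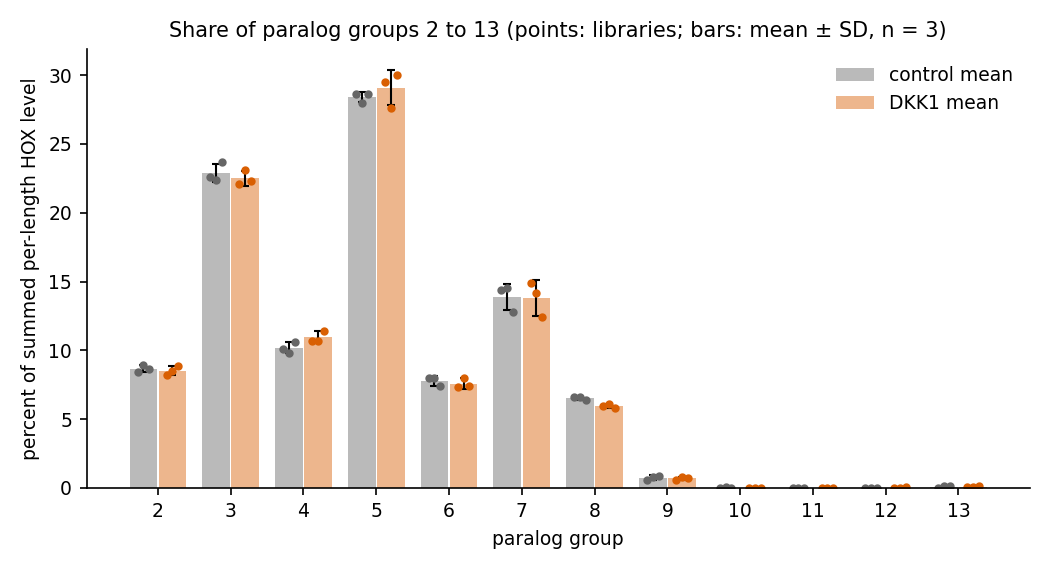
Percent of the summed per-length HOX level (vertical axis) held by each of paralog groups 2 to 13, with control libraries in grey and DKK1 libraries in orange; bars are means, error bars SD (n = 3) and points single libraries. Groups 5 and 3 hold the largest shares in both conditions, at 28.4% and 22.9% in control, and groups 10 to 13 hold next to none.

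The sequence just upstream of the start sites was set beside this pattern, since paralogs above and below 1 CPM share their ancestry but not their level. RefSeq start sites on GRCm38.p6 were supplied for 22 of the 39 genes, 7 expressed and 15 not, in 24 windows of 250 bases. Hoxa5, the highest HOX gene, is shown with the only paralog pairs of 1 expressed and 1 not expressed gene whose windows touch no annotated exon, Hoxb4 with Hoxd4 and Hoxb8 with Hoxd8. Each window runs 5′ to 3′ on the gene's own strand and ends just before the start site, and capitals mark CpG dinucleotides. The windows are chr6:52204588-52204837 on the minus strand for Hoxa5, and on the plus strand chr11:96318017-96318266 for Hoxb4, chr2:74721728-74721977 for Hoxd4, chr11:96281655-96281904 for Hoxb8 and chr2:74704365-74704614 for Hoxd8.
Hoxa5: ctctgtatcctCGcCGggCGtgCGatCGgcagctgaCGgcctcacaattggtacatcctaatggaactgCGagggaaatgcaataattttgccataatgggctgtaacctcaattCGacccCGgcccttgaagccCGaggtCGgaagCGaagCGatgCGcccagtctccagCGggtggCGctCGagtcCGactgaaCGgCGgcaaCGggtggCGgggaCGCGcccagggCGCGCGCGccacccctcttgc
Hoxb4: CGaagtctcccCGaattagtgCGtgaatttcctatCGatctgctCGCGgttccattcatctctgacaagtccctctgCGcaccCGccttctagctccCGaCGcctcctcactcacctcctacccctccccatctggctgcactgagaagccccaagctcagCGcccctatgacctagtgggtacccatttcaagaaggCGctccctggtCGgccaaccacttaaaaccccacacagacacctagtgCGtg
Hoxd4: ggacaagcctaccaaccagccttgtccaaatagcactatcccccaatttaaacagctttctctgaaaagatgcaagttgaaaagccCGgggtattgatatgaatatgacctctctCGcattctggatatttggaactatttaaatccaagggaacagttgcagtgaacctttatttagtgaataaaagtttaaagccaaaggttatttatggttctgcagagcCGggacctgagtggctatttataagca
Hoxb8: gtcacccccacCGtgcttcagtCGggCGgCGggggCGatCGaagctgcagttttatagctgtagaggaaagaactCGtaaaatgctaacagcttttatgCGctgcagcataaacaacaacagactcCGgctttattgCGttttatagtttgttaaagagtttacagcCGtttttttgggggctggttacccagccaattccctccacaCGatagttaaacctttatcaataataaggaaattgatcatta
Hoxd8: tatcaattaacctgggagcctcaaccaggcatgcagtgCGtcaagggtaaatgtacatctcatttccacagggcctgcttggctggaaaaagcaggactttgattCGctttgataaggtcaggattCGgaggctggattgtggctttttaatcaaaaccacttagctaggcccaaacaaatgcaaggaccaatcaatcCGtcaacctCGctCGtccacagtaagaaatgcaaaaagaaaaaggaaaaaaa

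The Hoxa5 window held 28 CpG dinucleotides at a GC content of 63.6%. In both paralog pairs the expressed gene had the more CpG-rich window, with 14 in Hoxb4 against 3 in Hoxd4, and 12 in Hoxb8 against 6 in Hoxd8. The pairs were not representative of the family, because genes below 1 CPM also had CpG-rich windows, such as Hoxd13 with 31 and Hoxa13 with 35. Over all HOX windows the 7 of expressed genes held 6 to 28 CpG (median 14) and the 17 of the other genes 2 to 35 (median 12), against a median of 6 in the 32851 windows of all genes. Windows of neighbouring HOX genes are not independent, and no test was made.

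Letters of 3 motifs were searched on both strands of the same windows. TGATNNAT, the composite site of a PBX and a HOX protein, was in 4 of 24 HOX windows (2 expressed, 2 not) and in 7.68% of all windows. The nuclear receptor half-site AGGTCA, as bound by retinoic acid receptors, was in 6 of the 24 (1 expressed, 5 not) and in 14% of all. CTTTGAT, a core of the sites of the Wnt effectors TCF and LEF, occurred in 1 HOX window, that of Hoxd8 (below 1 CPM), and in 3.21% of all; it can overlap TGATNNAT by its last letters. Such matches describe letters, not bound sites.

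After DKK1 the same 15 genes had a mean level of at least 1 CPM, and no HOX gene passed the threshold in the unpaired test. Of the 39 genes, 16 had enough counts to be tested (the 15 expressed genes and Hoxc4), and 0 of these 16 passed the threshold of 0.05 on the adjusted p (quasi-likelihood test of edgeR over all genes), against 0.895% of the 14635 genes tested. At an unadjusted p under 0.05 there was 1, Hoxa4, against 10.6% of all tested genes. DESeq2 and limma-voom also called 0, with 0 and 1 genes at an unadjusted p under 0.05. Of the 16 genes 9 had higher and 7 lower fitted values, and their median log2 fold change was 0.02, beside -0.001 for all tested genes. The median absolute log2 fold change was 0.08 for the HOX genes and 0.07 for all tested genes.

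**Figure D3:**
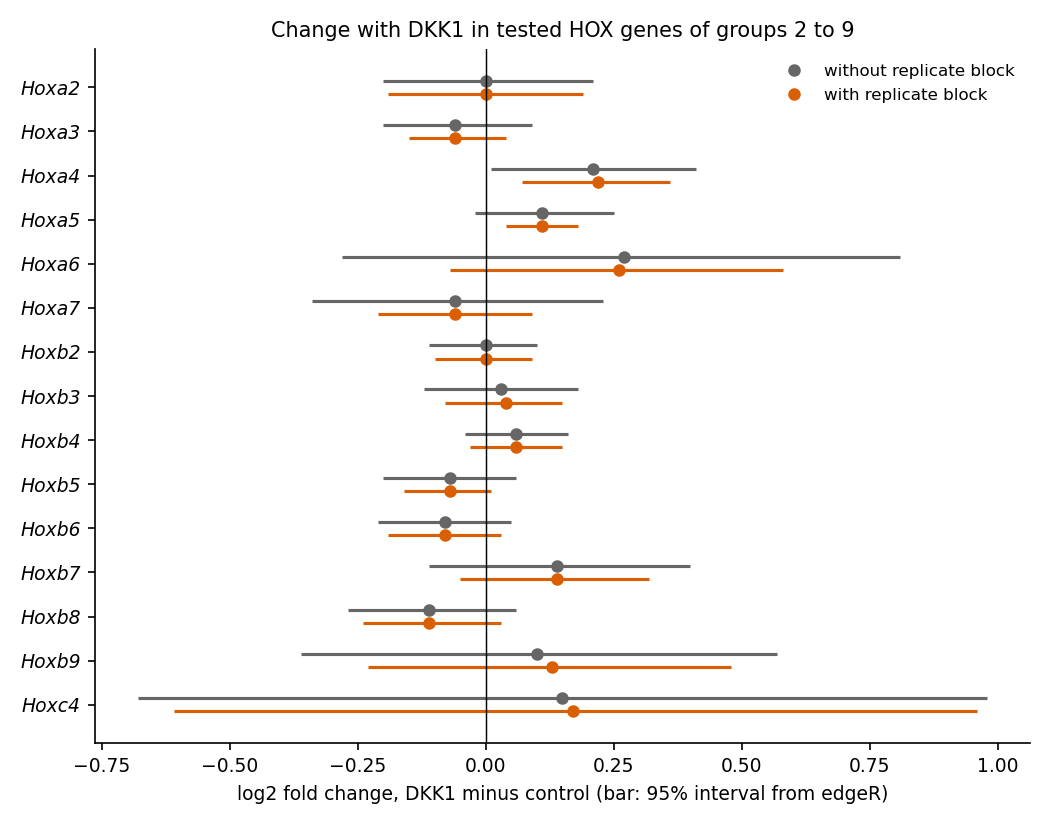
Log2 fold change of DKK1 minus control (horizontal axis) for the tested HOX genes named in the text, from the edgeR fit without the replicate block (grey) and with it (orange); points are estimates and bars 95% intervals. Most intervals include 0; those of Hoxa4 and, with the block, Hoxa5 do not.

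The genes of group 2, which are known from the hindbrain and the branchial arches, showed no shift common to the 3 libraries of a group. Hoxa2 (ENSMUSG00000014704), which patterns the second branchial arch, measured 10.3, 11.1 and 11.1 CPM in control replicates 1 to 3 and 11.9, 9.96 and 10.8 CPM in the DKK1 replicates. Hoxb2 (ENSMUSG00000075588) was steadier, at 32.9, 31.6 and 31.2 CPM in control and 31.2, 32.6 and 31.9 CPM after DKK1. The groups overlapped for both. The 95% interval of the log2 fold change ran from -0.20 to 0.21 for Hoxa2 and from -0.11 to 0.10 for Hoxb2, so the counts of Hoxb2 allow a smaller change than those of Hoxa2.

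In group 3, whose genes are known from the thymus, parathyroid and neck, Hoxa3 (ENSMUSG00000079560) measured 38.2, 35.9 and 40.4 CPM in control and 39.3, 34.1 and 37.1 CPM after DKK1. Hoxb3 (ENSMUSG00000048763) measured 40.5, 37.1 and 39.0 CPM in control and 40.3, 42.6 and 36.4 CPM after DKK1. Both pairs of groups overlapped, with log2 fold changes of -0.06 (interval -0.20 to 0.09) and 0.03 (interval -0.12 to 0.18). Exons of Hoxa3 overlap those of 4 genes on the opposite strand and of Gm28308 on the same strand, and its counts were not whole in any library. Hoxa2, which overlaps Gm28308 only, had counts that were not whole in 5 libraries.

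Groups 4 and 5 of the Hoxa cluster held the 2 lowest p-values of the family. Hoxa4 (ENSMUSG00000000942, chr6:52189671-52191753) measured 15.7, 13.4 and 16.5 CPM in control and 18.6, 16.8 and 17.6 CPM in the DKK1 libraries. The lowest DKK1 library was above the highest control library, and Hoxa4 was the only one of the 16 tested genes without overlap, against 16.5% of all tested genes. The fitted log2 change was 0.21 (interval 0.01 to 0.41, SE 0.09, edgeR adjusted p = 0.424). With the replicate number as a block it was 0.22 (SE 0.07, edgeR adjusted p = 0.0602). When the block was combined with removal of the dependence on GC content and length it was 0.24 and passed (edgeR adjusted p = 0.0415, where 9.05% of all genes were called), whereas DESeq2 with the block gave an adjusted p of 0.875. The unpaired log2 change lay between 0.129 (without control replicate 2) and 0.270 (without control replicate 3) when 1 library was left out.

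Hoxa5 (ENSMUSG00000038253, chr6:52201754-52204587), the lung mesenchyme regulator, measured 83.0, 75.0 and 79.1 CPM in control and 91.8, 79.1 and 86.8 CPM after DKK1. The groups overlapped, because DKK1 replicate 2 was below control replicate 1, but in each same-numbered pair the DKK1 library was the higher one, by 0.15, 0.08 and 0.13 on the log2 scale. The fitted log2 change was 0.11 without the block (interval -0.02 to 0.25, SE 0.06, edgeR adjusted p = 0.583) and 0.11 with it (interval 0.04 to 0.18, SE 0.03, edgeR adjusted p = 0.0387). The unpaired value lay between 0.062 (without DKK1 replicate 1) and 0.168 (without DKK1 replicate 2) when 1 library was left out. Hoxa5 was the 1 HOX gene of 16 called in the paired edgeR fit, where 9.42% of all genes were called. The paired call was lost when both libraries of any 1 number were left out (edgeR adjusted p = 0.155, 0.111 and 0.139 without numbers 1, 2 and 3), and when the GC and length trend was removed (adjusted p = 0.0584). DESeq2 with the block gave an adjusted p of 0.666.

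Of their Hoxb paralogs, Hoxb4 had a positive fitted change, like Hoxa4, and Hoxb5 a negative one, unlike Hoxa5. Hoxb4 (ENSMUSG00000038692), known from blood stem cells, measured 34.0, 32.5 and 33.3 CPM in control and 35.6, 33.6 and 35.1 CPM after DKK1, slightly higher in each of the 3 pairs. Hoxb5 (ENSMUSG00000038700, chr11:96303336-96306121), also a regulator of lung branching, measured 52.3, 48.9 and 50.5 CPM in control and 52.2, 47.0 and 45.7 CPM after DKK1, lower in each of the 3 pairs, though in pair 1 by almost nothing. Neither passed the test. The log2 fold changes were 0.06 (interval -0.04 to 0.16, edgeR adjusted p = 0.725) for Hoxb4 and -0.07 (interval -0.20 to 0.06, edgeR adjusted p = 0.751) for Hoxb5.

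The genes of groups 6 to 9, which pattern the thoracic region, gave intervals of different widths. Hoxa6 (ENSMUSG00000043219) measured 3.28, 2.55 and 2.12 CPM in control and 3.98, 3.17 and 2.39 CPM after DKK1. The fitted log2 change was 0.27, with an interval from -0.28 to 0.81, and lay between 0.073 (without DKK1 replicate 1) and 0.442 (without control replicate 1) when 1 library was left out. Replicate 3 was the lowest in both groups. Hoxb6 (ENSMUSG00000000690) measured 24.2, 23.6 and 23.0 CPM in control and 21.6, 23.5 and 22.1 CPM after DKK1. Hoxb8 (ENSMUSG00000056648) measured 17.4, 16.3 and 16.1 CPM and then 16.3, 15.7 and 14.4 CPM. Hoxb6 and Hoxb8 were lower in each of the 3 pairs, with log2 fold changes of -0.08 (interval -0.21 to 0.05) and -0.11 (interval -0.27 to 0.06). Hoxb7 (ENSMUSG00000038721) measured 10.1, 10.1 and 9.31 CPM in control and 12.6, 10.3 and 9.84 CPM after DKK1, with DKK1 replicate 1 standing above the other libraries. Hoxa7 (ENSMUSG00000038236) measured 17.4, 15.7 and 14.1 CPM in control and 16.8, 16 and 12.4 CPM after DKK1, and was lowest in replicate 3 of both groups. Hoxb9 (ENSMUSG00000020875), at the 5′ boundary, measured 2.84, 2.48 and 3.97 CPM in control and 2.86, 3.54 and 3.56 CPM after DKK1. None of these 6 genes was called, with or without the block.

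**Figure D4:**
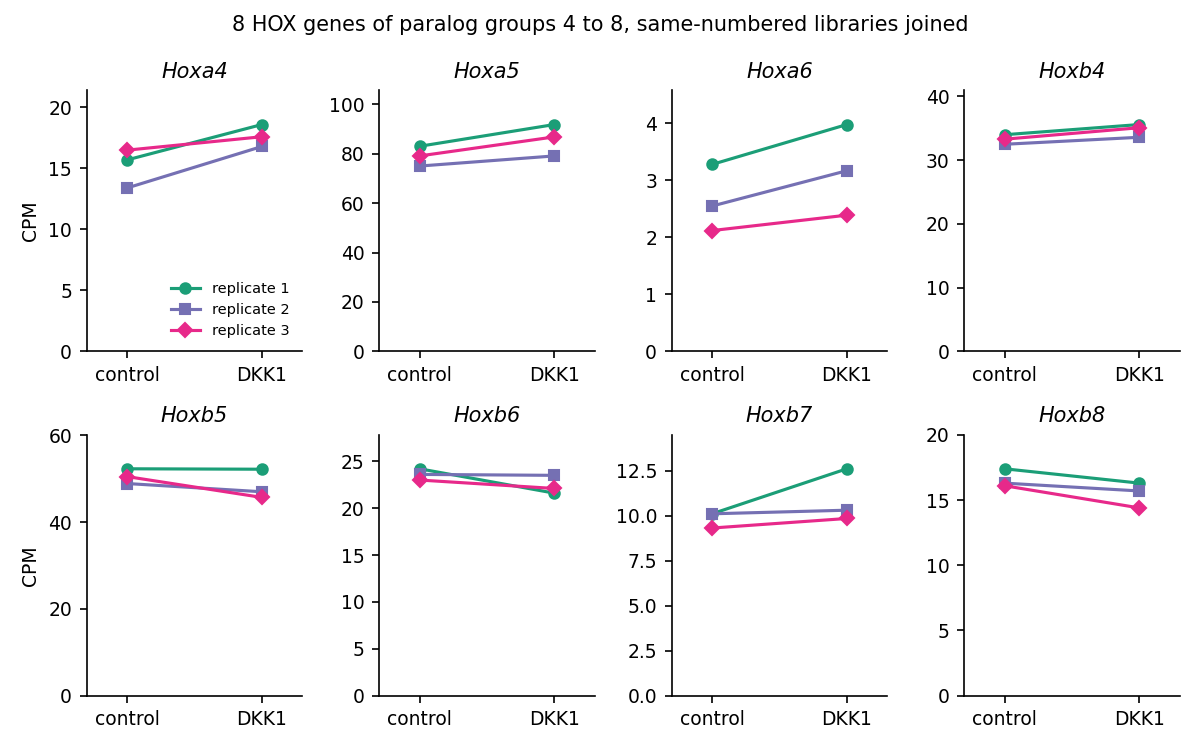
CPM (vertical axis, from 0) of Hoxa4, Hoxa5, Hoxa6, Hoxb4, Hoxb5, Hoxb6, Hoxb7 and Hoxb8 in control and DKK1 libraries, with libraries of the same replicate number joined. The lines of Hoxa4, Hoxa5, Hoxa6, Hoxb4 and Hoxb7 go up in all 3 pairs and those of Hoxb5, Hoxb6 and Hoxb8 go down in all 3, by small amounts beside the levels themselves.

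Of the 16 tested genes, 5 were higher in all 3 same-numbered pairs, where 22.3% of all tested genes were, and 3 were lower in all 3, where 19.5% of all tested genes were. The summed HOX level was 375 ± 12.6 CPM in control and 382 ± 15.3 CPM after DKK1 (SD, n = 3 each), with overlapping groups. Group 5 held 28.4% ± 0.355 of the summed per-length level in control and 29.1% ± 1.27 after DKK1, with overlap. The share of group 4 was 10.1%, 9.78% and 10.6% in control and 10.7%, 10.7% and 11.4% after DKK1, and that of group 8, almost entirely Hoxb8, was 6.58%, 6.57% and 6.37% and then 5.92%, 6.13% and 5.79%. These shares of groups 4 and 8 were the ones without overlap among groups 2 to 9, and neither was tested. Within the control group, the coefficient of variation of the 15 expressed genes ran from 2.17% (Hoxb4) to 25.2% (Hoxb9), with a median of 4.67%, beside 5.34% for all genes with at least 1 CPM.

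HOX proteins bind DNA together with homeodomain partners of the TALE class, PBX, MEIS and PKNOX. All 11 listed TALE genes were transcribed enough to be tested, and their median log2 fold change was 0.03. In the unpaired edgeR fit 0 were called and 1 had an unadjusted p under 0.05, beside 0.895% and 10.6% of all tested genes. Meis1 measured 69.3, 67.9 and 63.9 CPM in control and 75.6, 79.6 and 69.0 CPM after DKK1, higher in each of the 3 pairs and overlapping by 1 library. The fitted log2 change was 0.15 (edgeR adjusted p = 0.402, SE 0.06). Under the block Meis1 was the 1 called gene of the 11 listed (edgeR adjusted p = 0.0126), where 9.42% of all tested genes were called. DESeq2 with the block called 0 of the 11.

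Polycomb complexes keep silent HOX genes off and trithorax complexes keep active ones on. A list of 30 chromatin regulators, which holds members of these complexes and also cohesin and CTCF genes, was tested whole. By edgeR 0 were called without and with the block, where 0.895% and 9.42% of all tested genes were. Without the block 2 genes had an unadjusted p under 0.05, where 10.6% of all tested genes did, and the median log2 fold change was -0.01. Rad21, a cohesin subunit, was the most abundant at 194, 204 and 203 CPM in control and 195, 211 and 199 CPM after DKK1. The Polycomb methyltransferase gene Ezh2 stood at 68.0 ± 2.86 and 68.8 ± 3.32 CPM and the trithorax gene Kmt2a at 121 ± 4.25 and 113 ± 10.8 CPM (SD, n = 3 each). The groups did not overlap for 5 of the 30, where they did not for 16.5% of all tested genes. Ezh1, the paralog of Ezh2, was one of these, at 19.1, 20.2 and 20.4 CPM in control and 18.2, 17.7 and 15.6 CPM after DKK1, but did not pass (log2 fold change -0.22, SE 0.07, edgeR adjusted p = 0.311).

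Retinoic acid switches on 3′ HOX genes in the embryo. Of 23 listed genes of retinoic acid handling and of the caudal family, 15 were tested, with a median log2 fold change of 0.03. Without the block edgeR called 0 of them, where it called 0.895% of all tested genes. An unadjusted p under 0.05 was found for 2, where it was found for 10.6% of all tested genes. DESeq2 and limma-voom without the block each called 1, where they called 289 of 23883 and 130 of 14635 genes. With the block 5 of the 15 were called by edgeR, 3 higher and 2 lower, where 9.42% of all tested genes were called, and DESeq2 with the block called 2 of the 20 it tested, where it called 2.31% of all genes. Rdh10, which oxidises retinol, measured 20.9, 22 and 26.7 CPM in control and 30.9, 31.4 and 33.7 CPM after DKK1, with no overlap. The fitted log2 change was 0.46 (edgeR adjusted p = 0.0598, SE 0.09), and the paired fit gave an edgeR adjusted p of 6.26e-05. Rarb, a retinoic acid receptor that retinoic acid itself induces, measured 16.9, 11.9 and 17.4 CPM and then 25.7, 15.2 and 19.1 CPM, higher in each pair (log2 fold change 0.37, edgeR adjusted p = 0.591; with the block 0.00995). Dhrs3, which returns retinal to retinol, was the other gene higher with the block (log2 fold change 0.23, edgeR adjusted p = 0.628 without and 0.0145 with it). Aldh1a1 and Cyp26b1, which make and break down retinoic acid, were lower with the block (log2 fold changes -0.33 and -0.16, edgeR adjusted p = 2.70e-05 and 0.0495, against 0.681 and 0.547 without it). Nr2f2, an orphan nuclear receptor, had the highest level of the list, a mean of 146 CPM in control, and was not called in either fit. Aldh1a2, the main embryonic source of retinoic acid, measured 121 ± 18.0 and 116 ± 17.3 CPM and was not called. Cdx1, Cdx2 and Cdx4, caudal factors that act upstream of trunk HOX genes, had 0 counts in all libraries.

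Other transcription factors mark position in lung and body wall mesenchyme. Of 30 listed, 22 were tested and 1 was called, Tbx3, where 0.895% of all tested genes were called, with a median log2 fold change of 0.07. Tbx3, a T-box factor of lung and limb mesenchyme, rose from 49.2, 46.3 and 48.7 CPM to 58.0, 56.0 and 57.2 CPM, 0.24 on the log2 scale (edgeR adjusted p = 0.0344, SE 0.04). The rise lost the call whenever 1 library was left out, with edgeR adjusted p-values from 0.0767 to 0.164 across those 6 fits and log2 fold changes from 0.22 to 0.26. With the block 4 of the 22 were called, beside 9.42% of all tested genes, and DESeq2 with the block called 2 of the 29 it tested, beside 2.31% of all genes. The edgeR calls added Prrx1 (272, 301 and 271 CPM in control, 316, 346 and 309 CPM after DKK1, edgeR adjusted p = 2.87e-05) as higher, and Tbx2 and Gata4 as lower (edgeR adjusted p = 0.0230 and 0.0248). The lung mesenchyme factors Tbx4 and Tbx5 stood at 83.6 ± 8.85 and 31.0 ± 1.02 CPM in control and at 80.3 ± 11.9 and 29.7 ± 1.06 CPM after DKK1, and neither was called. The hindlimb factor Pitx1 had at most 3 counts and Hand1 had 0.

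**Figure D5:**
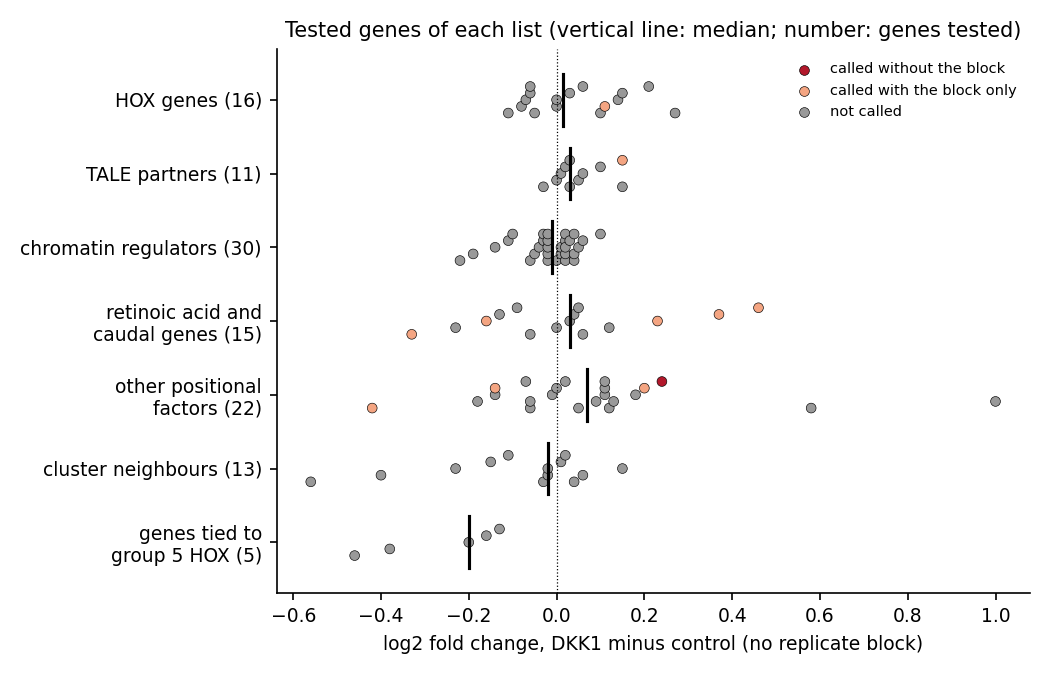
Log2 fold change of DKK1 minus control without the replicate block (horizontal axis) for every tested gene of the HOX family and of 6 related lists; red points were called without the block, light orange points with the block only and grey points in neither, and vertical lines are medians. Tbx3 is the only red point.

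Several listed genes flanking the Hoxd and Hoxc clusters were transcribed in control cells, with Lnpk and Mtx2 beside Hoxd at 34.6 ± 1.69 and 33.3 ± 3.01 CPM, and Cbx5 and Calcoco1 near Hoxc at 206 ± 7.07 and 33.8 ± 2.73 CPM. Evx2, a homeobox gene next to Hoxd13, had at most 1 count in any library. Within the clusters, long noncoding transcripts were found next to expressed HOX genes, with Hoxaas2 at 4.55 ± 0.323 CPM, Hoxb5os at 4.16 ± 0.354 CPM and Hoxb3os at 1.87 ± 1.40 CPM in control. Hottip and Hotair, transcribed from the 5′ parts of the Hoxa and Hoxc clusters in hind and distal body parts, had 0 counts, as had Haglr of the Hoxd cluster. Of 28 neighbours that were found, 13 were tested, with a median log2 fold change of -0.02. The edgeR fits without and with the block called 0 of them, beside 0.895% and 9.42% of all tested genes. Without the block 1 had an unadjusted p under 0.05, beside 10.6% of all tested genes. That gene, Hoxb5os, was lower without overlap, at 3.90, 4.56 and 4.02 CPM in control and 3.24, 3.05 and 3.21 CPM after DKK1 (log2 fold change -0.40, SE 0.13, edgeR adjusted p = 0.304). Its exons overlap Hoxb5 on the opposite strand, and because the strandedness of the counting is not given, reads of the pair could be mixed. The same holds for Hoxa3, Hoxa4, Hoxa7, Hoxb2 and Hoxb3, which overlap antisense exons, whereas Hoxa5 overlaps none and had whole counts in all libraries.

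Mouse genetics ties the group 5 HOX genes to a Wnt and BMP axis in lung mesenchyme, so 5 genes of that axis were read beside them. In the unpaired edgeR fit 0 of the 5 were called and 0 had an unadjusted p under 0.05, beside 0.895% and 10.6% of all tested genes. All 5 had lower fitted values after DKK1 in that fit, with a median log2 fold change of -0.20. This median was -0.392 without control replicate 2 and -0.045 without DKK1 replicate 2. With the block 0 were called either, beside 9.42% of all tested genes, and Bmp4 had an unadjusted p of 0.0305 (edgeR adjusted p = 0.176). Bmp4 stood at 28.4 ± 1.74 CPM in control and 26.0 ± 3.01 CPM after DKK1, and Wnt2 at 2.92 ± 0.772 and 2.55 ± 0.512 CPM. Wnt2b, Axin2 and Lef1 were at 2.13 ± 0.162, 1.21 ± 0.159 and 0.606 ± 0.0934 CPM in control and 1.64 ± 0.393, 1.10 ± 0.278 and 0.439 ± 0.211 CPM after DKK1 (SD, n = 3 each). Every one of the 5 overlapped between the groups, and 3 (Wnt2, Wnt2b and Lef1) were lower in all 3 same-numbered pairs, where 19.5% of all tested genes were.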

How the data were processed

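The authors deposited 1 table of expected counts per gene for 6 libraries. Per the submitters' processing notes, STAR, RSEM and edgeR 4.2.1 and the build GRCm38 (mm10) were used; which tool did what, the annotation and the strandedness are not given in the sources used here. Columns were matched by the name in each sample's description. Symbols were found for 98.8% of 45706 identifiers. Lengths, positions and exons came from GENCODE M21 (GRCm38), which holds 98.7% of the transcripts named in the table, and start sites from RefSeq (GRCm38.p6).

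The test used rounded expected counts and edgeR 4.0.16 (R 4.3.3): filterByExpr (minimum count 10, 14635 genes), TMM, quasi-likelihood test on the group alone, two-sided, Benjamini-Hochberg over all genes, with calls below 0.05. Standard errors and 95% intervals are approximate, from the F statistic. The fit was tested on simulated data. CPM are scaled to library totals; values are mean ± SD. The floor of 3 counts covers counting error only, and PCR duplicates are not independent molecules.

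Same-numbered libraries, paired by the numbers in the sample titles, deviated together from their group means (correlations across genes of 0.274, 0.230 and 0.405 for numbers 1 to 3), so the replicate block is given where it changed a call. Other alternatives were DESeq2 1.42.0, limma-voom (limma 3.58.1), scaling, filters, unrounded counts, leaving out libraries and, chosen after seeing the data, removal of the GC and length trend and leaving out both libraries of a number. Named were all expressed HOX genes and, from each related list, called members or up to 4 of the highest mean level; others named (Ezh1, Ezh2, Rdh10, Tbx4, Tbx5 and further low or uncalled list members) were chosen after their values were seen. The members and lists were chosen with earlier results of these data known. RefSeq sequences were read by symbol. Values of 1 HOX gene and 1 gene of a related list are not reported here; counts and medians include them.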

Additional observations from a re-analysis of the deposited data

How the results depend on the processing

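The expressed set (15 genes, or 16 with at least 10 counts in every control library) did not depend on a single library. No HOX gene was called in any unpaired alternative run, including the 6 fits that each left out 1 library, and the median log2 fold change of the 16 genes ranged from -0.014 to 0.056 across those 6 fits. The paired edgeR fit called 1 HOX gene, Hoxa5, and with the GC and length trend removed also 1, Hoxa4; the cause was not tested. The block changed no other HOX call. Without both libraries of any 1 number the paired fit called 0. Among all genes the calls went from 131 (102 higher, 29 lower) to 1379 (726 higher, 653 lower) with the replicate block, 1324 with the block and the trend removed, 329 without a low-count filter, 289 with DESeq2 and 551 with DESeq2 and the block, and lay between 36 (without control replicate 2) and 139 (without DKK1 replicate 3) when 1 library was left out.

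Signs turned only for HOX genes with fitted changes near 0 or low counts, none called in these fits. Hoxb2 was at 0 with library totals only and 0.010 with the trend removed, with or without the block. Hoxa2 was -0.001 with the block, -0.007 with limma-voom, -0.005 with the trend removed and -0.010 with both. With 1 library left out, log2 fold changes ranged from -0.070 to 0.063 for Hoxa2, -0.142 to 0.060 for Hoxa7, -0.028 to 0.018 for Hoxb2, -0.024 to 0.095 for Hoxb3, -0.039 to 0.313 for Hoxb9 and -0.140 to 0.431 for Hoxc4. Ranges without a turn of sign were -0.108 to -0.005 for Hoxa3, 0.039 to 0.08 for Hoxb4 and -0.131 to -0.031 for Hoxb5. They were -0.123 to -0.054 for Hoxb6, 0.024 to 0.21 for Hoxb7 and -0.144 to -0.06 for Hoxb8.

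Among the related lists, the block called 1 TALE, 5 retinoic acid and 4 positional genes, and with the trend removed as well 1, 4 and 3. Retinoic acid genes gave 1 call without a filter, with DESeq2, with limma-voom or without both replicate 3 libraries, and 2 with DESeq2 and the block, where positional genes also gave 2; without both replicate 3 libraries positional genes gave 0. Leaving out 1 library gave 0 positional and 0 to 1 retinoic acid calls. List medians without both replicate 3 libraries were 0.066 (TALE), 0.010 (chromatin), -0.017 (retinoic acid) and -0.040 (neighbours), and for neighbours -0.043 with the trend removed and -0.044 with the block too. With 1 library left out they ranged from 0.018 to 0.072 (TALE), -0.017 to 0.011 (chromatin), -0.049 to 0.077 (retinoic acid), 0.027 to 0.107 (positional), -0.031 to -0.010 (neighbours) and -0.392 to -0.045 (group 5 axis).

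Transcript length moved shares. With the longest and the shortest transcripts Hoxa held 51.1% and 47.7% of the summed per-length level, Hoxb 48.5% and 51.9%, group 5 36.2% and 16.5%, and groups 3 to 5 together 66.2% and 69.1%, and Hoxa5 had rank 3 with the shortest. Depth limited what could be detected of the 24 genes under 1 CPM, of which the low-count filter kept Hoxc4; without it, and in DESeq2, 35 HOX genes were tested and 0 were called. Hoxa6, Hoxb9 and Hoxc4 had the widest intervals.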
